A study of Rattus norvegicus with 30 samples.

Results

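The regions described here lie around a pair of intronic sites of the rat prefrontal cortex (PFC) methylome, in the neuronal growth regulator gene Negr1 and the copine gene Cpne4. The sites were chosen on their DNAm difference in PAE animals from both CON and PF animals in these same libraries, so values at the sites are a description and no test is given for them. Members were the merged peak regions that had a called peak in at least 2 libraries and overlapped a window reaching 100 kb to each side of a site, on the Rn6 build. The Negr1 window held 31 such regions (the site and 30 flanking regions) and the Cpne4 window held 48 (the site and 47 flanking regions), 79 in all out of 432103 autosomal regions called in at least 2 libraries. The flanking regions were chosen by position alone and could be tested.

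Negr1 encodes an IgLON protein, a family of cell adhesion molecules anchored to the neuronal surface by a lipid, which are known for their part in neurite outgrowth and synapse formation. Cpne4 encodes a copine, a family of cytosolic proteins that bind membrane phospholipids through C2 domains when calcium rises. DNAm at cytosines within introns can mark regulatory elements and the gene body, and its level in a bulk tissue is an average over neurons and glia.

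DNAm was measured by meDIP-seq, in which an antibody against methylated cytosine enriches methylated fragments before sequencing, in the PFC of 30 Sprague-Dawley rats at postnatal day 22. CON dams ate a pelleted control diet freely, PF dams received a liquid control diet in the amount eaten by a PAE partner, with maltose-dextrin in place of ethanol, and PAE dams had free access to a liquid diet with 36% of calories from ethanol, all from gestation day 1 to 21. Pair-feeding is thus a reduced ration as well as a diet control. Each group held 10 libraries from 5 dams, with 1 library labelled female and 1 labelled male per dam. In libraries of bulk PFC, fewer cells of a methylated type and less DNAm per cell cannot be told apart, and peaks of DNAm hold no expression of marker genes with which to check the labelled tissue.

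Filtered fragments ranged from 11548314 to 16555049 per library, and autosomal peaks numbered 151576 ± 26759 in CON, 143998 ± 19297 in PF and 135828 ± 26494 in PAE libraries (SD, n = 10 each). Calls on chromosomes X and Y went against the labelled sex in 18 of the 30 libraries (7 CON, 7 PF and 4 PAE). A set of 23 libraries had 38 to 87 peaks on chromosome Y and the other 7 had 4 to 11, whereas the labels give 15 females and 15 males. Results by labelled sex refer to the labels only, and the main results are also given for the 12 libraries (3 CON, 3 PF and 6 PAE) whose sex-chromosome peaks match the label. The peaks offer no such check of the group and dam labels, on which every contrast rests. The libraries were spread over 5 values of the sequencing chip label, called lanes here. The first lane held no PF and the fourth no PAE library, and lane was a term in the main fits.

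The value of a library in a region was its normalized height, the highest pileup of fragments per 1000000 filtered fragments. A library without a called peak was set to a floor of 0.438, since coverage below the calling threshold is not part of the peak files. The coverage of such a library can lie below or above the floor, so a difference from a group at the floor can be understated or overstated.

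The layout of the windows was as follows. The median number of libraries with a peak was 5 for Negr1 members and 7 for Cpne4 members, against 6 over all 432103 regions. A peak in at least 20 libraries was seen at 7 Negr1 and 5 Cpne4 members, and no member was called in all 30. Member length was between 264 and 1991 bp, and its median was 478 bp for Negr1 and 601.5 bp for Cpne4, against 499 bp over all regions. In consecutive 200 kb tiles of the autosomes the median number of regions was 34, fewer than in the Cpne4 window and more than in the Negr1 window. At the limit of the rule, the 16 members called in exactly 2 libraries had called heights of 0.366 to 1.23, and the 21 regions left out because only 1 library called them had heights of 0.395 to 0.950.

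**Figure D1:**
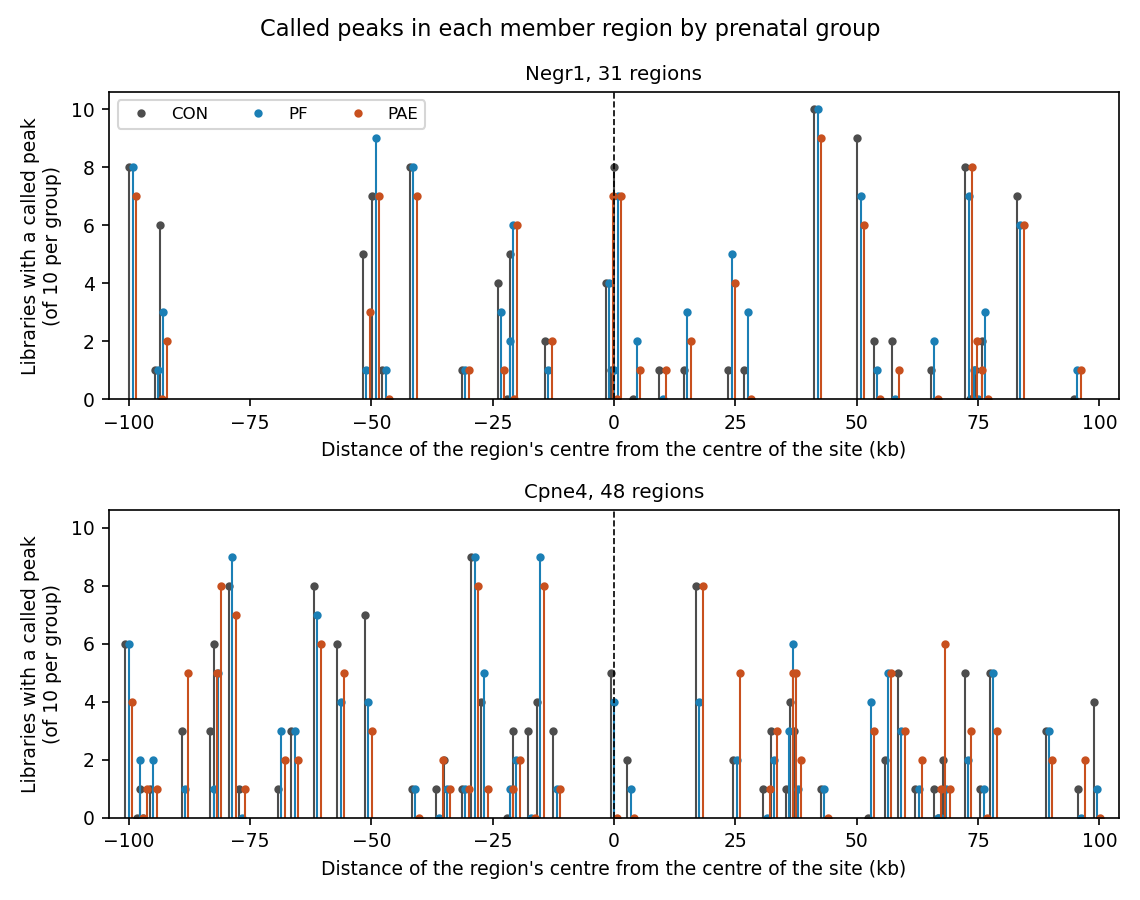
Number of libraries with a called peak (vertical axis, of 10 per group) in each of the 31 Negr1 and 48 Cpne4 members, against the distance in kb between the centre of the region and the centre of the site (dashed line). Stems are coloured by prenatal group and offset sideways for legibility. The Negr1 site stands between often-called neighbours with 15 and 22 calls, and the Cpne4 site stands in a stretch with few calls.

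The regions were not spread evenly, as the map of called peaks by distance shows. In the Negr1 window the longest stretch without a member ran for 41089 bp (chr2:262954751-262995841), and the site lay within a tight group of regions, 488 bp from the next member on its left and 383 bp from the next on its right. In the Cpne4 window the site was more isolated, 11214 bp from the member on its left and 2995 bp from the member on its right, and the longest stretch without a member, 12920 bp, began just past that neighbour.

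The Negr1 site (chr2:263046899-263047177, 279 bp, annotated by the study as an intron of Negr1) had a called peak in 2 libraries, 1 CON and 1 PF, and in none of the 10 PAE libraries. CON replicate 1 had a normalized height of 0.693 and PF replicate 4 one of 0.636, each from a pileup of 8 fragments, where the lowest pileup that was called in a library was 5 or 6. The other 28 libraries were at the floor, so the group means were 0.464 ± 0.0805 in CON and 0.458 ± 0.0626 in PF (SD, n = 10 each), with every PAE library at 0.438. The groups overlap at the floor, and CON and PF each stand above PAE through a single library. The fitted log2 difference was -0.04 for PAE minus CON, -0.04 for PAE minus PF and 0.01 for PF minus CON.

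A region called in 2 libraries with neither of them PAE is common: it was found at 47.7% of the 80077 autosomal regions called in 2 libraries. Both libraries with a peak at the Negr1 site are labelled female and both go against their label on the sex chromosomes, so none of the 12 libraries that match their label had a called peak there. CON replicate 1 had 153344 autosomal peaks and PF replicate 4 had 184391, above the medians of 139146 and 137042 among the libraries of their groups without the peak, and the part of peak number in the calls was not tested. Both libraries also had a called peak in the neighbour on the right (chr2:263047561-263048006) and neither had one in the neighbour on the left (chr2:263045757-263046410).

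Those neighbours held far more signal than the site. On the left, 4 CON, 4 PF and 7 PAE libraries had a called peak, with heights from the floor to 1.15 in CON (median 0.438), to 0.996 in PF (median 0.438) and to 0.749 in PAE (median 0.550). The PAE libraries thus had the most calls and the lowest maximum, and the groups overlapped up to that maximum, above which there were only CON and PF libraries. On the right, 8 CON, 7 PF and 7 PAE libraries had a called peak, with medians of 0.872, 0.851 and 0.812 and maxima of 1.29, 1.17 and 1.23. At neither neighbour was a difference of PAE from the other groups larger than the spread of the libraries. The log2 difference for PAE minus CON was 0.07 ± 0.23 on the left and -0.08 ± 0.27 on the right, and for PAE minus PF it was 0.03 ± 0.23 and -0.08 ± 0.27 (SE, limma, adjusted p from 0.955 to 0.999).

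The Cpne4 site (chr8:113173519-113173931, 413 bp, annotated by the study as an intron of Cpne4) had a called peak in 5 CON, 4 PF and 0 PAE libraries. In CON the heights were 0.720 in replicate 2, 0.884 in replicate 6, 0.856 in replicate 7, 1.28 in replicate 9 and 1.10 in replicate 10. In PF they were 0.983 in replicate 2, 0.849 in replicate 5, 1.03 in replicate 9 and 1.17 in replicate 10. The remaining 5 CON and 6 PF libraries sat at the floor with all 10 PAE libraries, so PAE overlaps the other groups only there, and the called CON and PF heights overlap each other. Means were 0.703 ± 0.316 in CON and 0.666 ± 0.304 in PF (SD, n = 10 each), and the fitted log2 difference was -0.72 for PAE minus CON, -0.56 for PAE minus PF and -0.16 for PF minus CON.

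The 9 called peaks were well above the calling threshold, with pileups of 10 to 17 fragments and −log10 q-values of 5.05 to 11.2, and they shared a core of 153 bp (chr8:113173660-113173812). They came from 7 dams, in 2 of which both littermates had the peak, and from all 5 lanes. In every lane that held PAE libraries at least 1 CON or PF library had the peak and no PAE library did, with 1 of 3 CON and PF libraries against 0 of 2 PAE libraries on the first lane, 2 of 5 against 0 of 2 on the second, 3 of 4 against 0 of 3 on the third and 2 of 3 against 0 of 3 on the fifth. Among the 12 libraries whose sex-chromosome peaks match the label, all 3 CON and all 3 PF libraries had the peak, against 0 of 6 PAE libraries. In these 12 the fitted log2 difference was -1.14 for PAE minus CON and -1.12 for PAE minus PF. Among the libraries that do not match, far fewer had the peak, with 2 of 7 CON, 1 of 7 PF and 0 of 4 PAE libraries. Within CON and PF the call thus went with the match to the label, and the reason was not tested. By labelled sex, 1 CON and 2 PF libraries labelled female and 4 CON and 2 PF libraries labelled male had the peak, of 5 each.

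Of the 14980 autosomal regions called in exactly 9 libraries, 267, or 1.78%, had no PAE library among them. The site was chosen for low values in PAE, so this share is a description. It depends on the number of calls, so it does not rank the Cpne4 site against the Negr1 site. The number of autosomal peaks overlapped between the called CON and PF libraries and the PAE libraries. It ranged from 132902 to 208631 (median 136160) in the called CON libraries, from 113946 to 151404 (median 138258) in the called PF libraries and from 103898 to 189772 (median 134362.5) in PAE libraries.

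**Figure D2:**
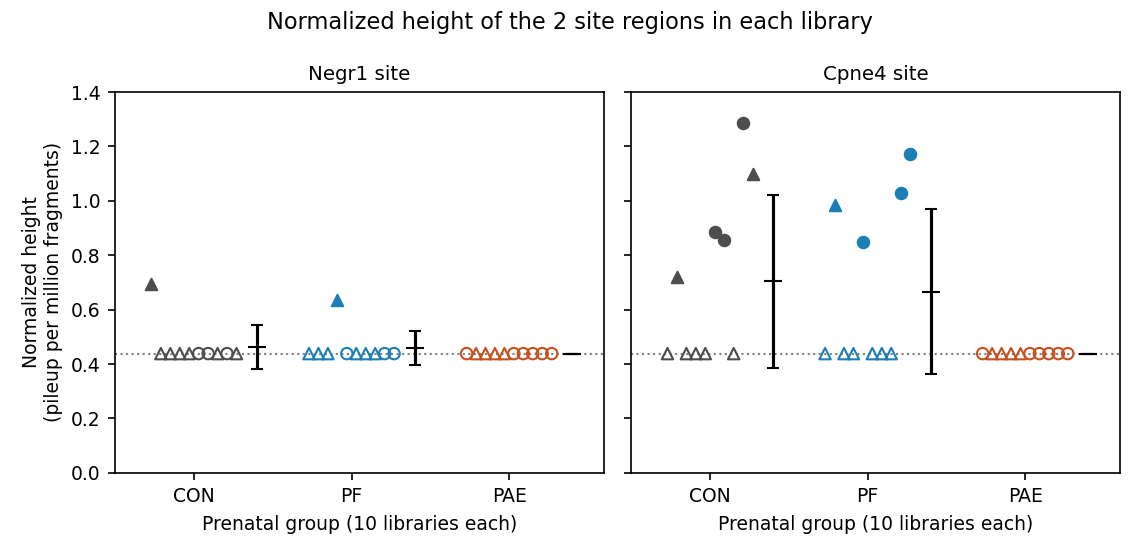
Normalized height (pileup per 1000000 filtered fragments) of the Negr1 and Cpne4 sites by library, for the 10 CON, 10 PF and 10 PAE libraries. Filled symbols are called peaks, open symbols are libraries set to the floor of 0.438 (dotted line), circles are libraries whose sex-chromosome peaks match the label, triangles are those that do not, and the black marks are the mean ± SD. At the Negr1 site 1 CON and 1 PF library stand above the floor, and at the Cpne4 site 5 CON and 4 PF libraries do.

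The members next to the Cpne4 site were rarely called. On the right (chr8:113176927-113177375) 2 CON, 1 PF and 0 PAE libraries had a peak, all 3 of them libraries that also had the peak at the site, with a maximum of 0.562 in CON and 0.732 in PF. On the left (chr8:113161498-113162304) 3 CON, 1 PF and 1 PAE library had a peak, and only 1 of these 5 libraries had the site peak as well. Its called heights ran from 0.866 to 1.30 in CON, and were 0.716 in the PF and 1.23 in the PAE library. Group medians were at the floor for both neighbours. Against CON, the PAE log2 difference was -0.02 ± 0.07 on the right and -0.20 ± 0.19 on the left, and against PF it was -0.08 ± 0.07 and 0.11 ± 0.19 (SE, limma, adjusted p from 0.817 to 0.990).

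Across the flanking regions DNAm peaks were called at similar rates in the groups, near the shares over all regions. CON, PF and PAE libraries gave 35.0%, 32.6% and 32.3% of the calls in flanking regions. Over all tested regions, called in at least 3 libraries, they gave 35.0%, 33.5% and 31.6%. A library had a called peak in 24.6 ± 7.68 of the 77 flanking regions in CON, 22.9 ± 6.40 in PF and 22.7 ± 6.02 in PAE (SD, n = 10 each). The count went with the number of peaks in the whole library mainly at the upper end. The highest, 43, was in the CON library with the most autosomal peaks, 208631. The lowest, 16, occurred in CON replicate 6 and PF replicate 1, with 136160 and 136757 autosomal peaks. PAE replicate 8, with the fewest autosomal peaks (103898), had 17. For this reason differences of flanking regions are read beside the same values over all 352026 autosomal regions tested.

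**Figure D3:**
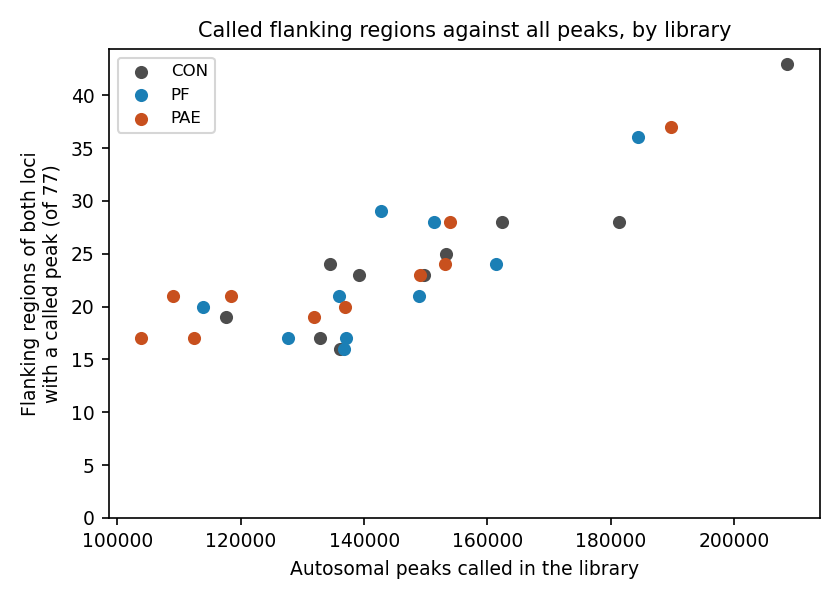
Number of the 77 flanking regions with a called peak in each library (vertical axis) against the autosomal peaks called in that library (horizontal axis), with CON, PF and PAE libraries in different colours. The libraries with the most peaks had the most called flanking regions, and the groups overlap, with 16 to 43 in CON, 16 to 36 in PF and 17 to 37 in PAE.

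Of the flanking regions, 24 around Negr1 and 38 around Cpne4 had a called peak in at least 3 libraries and were tested. The other 6 and 9 were called in 2 libraries only. No tested flanking region passed an FDR of 0.05 in any of the 3 contrasts (limma, Benjamini-Hochberg over all tested regions), where the background was 0.000284% of regions for PAE against CON, 0% for PAE against PF and 0% for PF against CON. The smallest adjusted p was 0.681 around Negr1 and 0.661 around Cpne4 for PAE versus CON, and 0.988 and 0.773 over both loci for the other contrasts.

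At an unadjusted p under 0.05, 3 of the 62 tested flanking regions were lower and 2 were higher in PAE than in CON, where 6.03% of all tested regions were lower and 1.34% were higher. For PAE versus PF 3 were lower, all around Negr1, and 1 was higher, around Cpne4 (2.95% lower and 1.51% higher over all regions). For PF versus CON 3 were lower and 1 was higher, all around Cpne4 (4.39% lower and 2.06% higher over all regions). Each count is of 1 to 3 regions, too few to be told apart from its background share. Some of these regions met the minimum of 3 called libraries only through the calls of 1 group, as stated where they are named.

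The median log2 difference of the tested flanking regions for PAE minus CON was -0.08 around Negr1 and -0.05 around Cpne4, against -0.05 over all regions. A fitted difference below 0 was found at 16 of 24 and 22 of 38, or 61.3% over both, against 63.2% of all regions. This direction depended on the scaling: with quantile normalization 48.4% of the flanking regions and 52.1% of all regions were below 0, and the median around Cpne4 was 0.02. For PAE minus PF the medians were -0.07 and 0.01, against -0.02 over all regions, with 15 of 24 and 16 of 38 below 0 (56.4% of all regions). For PF minus CON they were 0.01 and -0.02, against -0.03 over all regions, with 12 of 24 and 20 of 38 below 0 (57.6% of all regions), but median ratio scaling brought the Cpne4 median to 0.0014 and each library's own floor brought the Negr1 median to -0.02. In the 12 libraries that match their label the medians for PAE minus CON were -0.16 around Negr1 and 0.08 around Cpne4. The contrasts share libraries, so their medians are not independent.

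The often-called regions carry the most information, because fewer of their libraries are at the floor. A group median can still lie there, as for PF at chr8:113190296-113192286 and for CON at chr8:113158214-113158843. Among the 12 flanking regions called in 20 or more libraries (7 around Negr1 and 5 around Cpne4), 11 had a fitted difference below 0 for PAE minus CON, where 69.7% of all 65168 regions called that often did. Their median was -0.15, against -0.12 over all such regions, and with quantile normalization 6 of the 12 were below 0. For PAE minus PF 6 were below 0 (60.7% of all such regions), and for PF minus CON 7 were (60.4%). None of the 12 passed the FDR in a contrast.

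No called peak at all was seen in CON at 4, in PF at 5 and in PAE at 7 of the 62 tested flanking regions. Over all tested regions the shares were 6.43%, 8.14% and 9.24%, counting regions called in as few as 3 libraries. Of the 15 flanking regions called in only 2 libraries, 7 had no PAE call, near the 47.7% of all such regions.

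**Figure D4:**
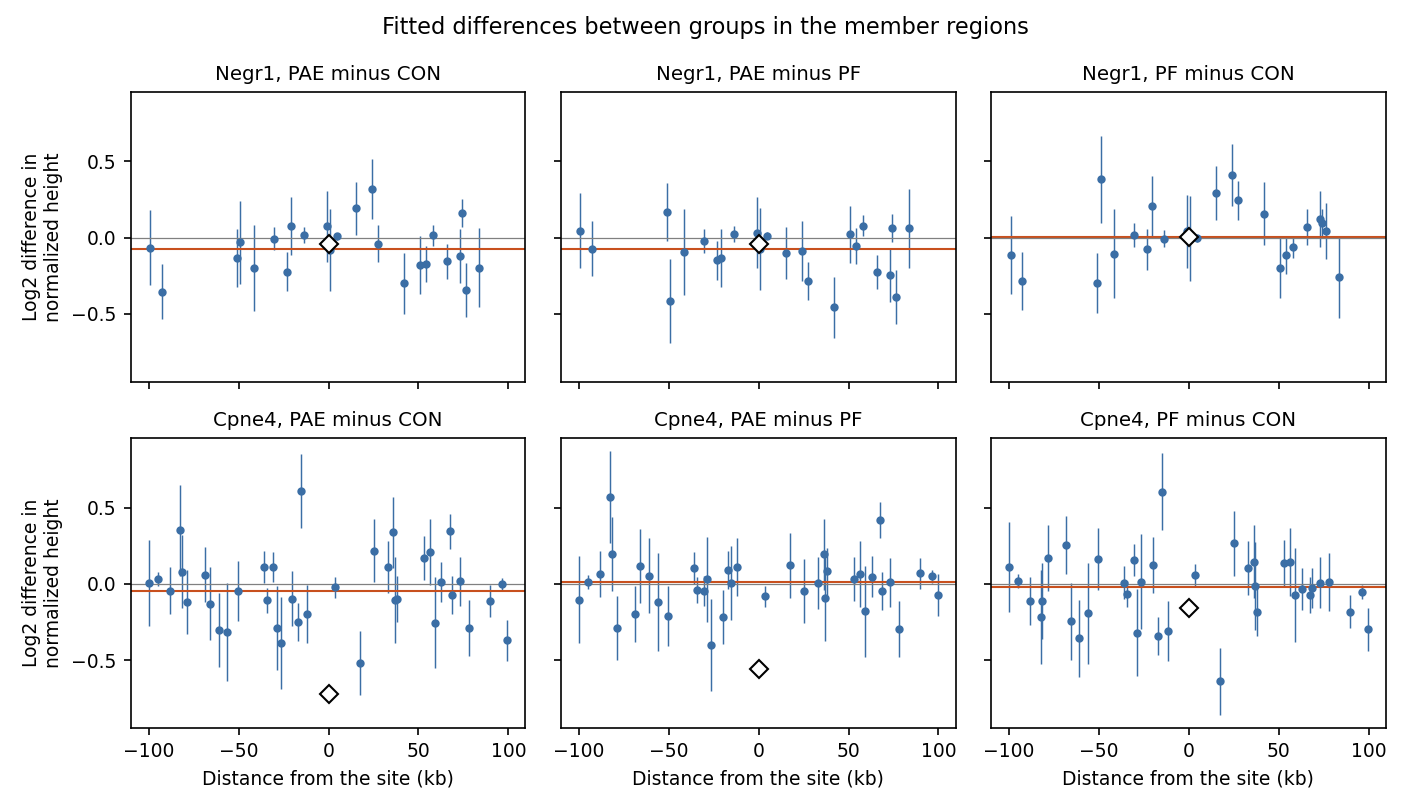
Fitted log2 difference in normalized height (vertical axis, points with SE bars) of the 24 Negr1 and 38 Cpne4 tested flanking regions against their distance from the site in kb, for each contrast. The orange line is the median of the flanking regions, the grey line is 0 and the white diamond is the site, shown without a test. The Cpne4 site lies at -0.72 and -0.56 in the PAE contrasts, below all of its flanking regions, and the Negr1 site lies at -0.04 in both.

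Within the Cpne4 window the site had the lowest fitted difference of the tested members in both PAE contrasts, whereas the flanking regions ran from -0.52 to 0.61 for PAE minus CON and from -0.40 to 0.57 for PAE minus PF. Since the site was chosen for these contrasts, its rank is a description.

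The strongest DNAm around Negr1 was at chr2:263088578-263089522, 42.0 kb from the site, which had a called peak in 29 libraries. Heights ran from 1.29 to 2.33 in CON (median 1.63), from 1.25 to 2.40 in PF (median 1.51) and from the floor to 2.34 in PAE (median 1.42), and the only library without a peak was PAE. The groups overlapped over nearly the whole range. PAE was below PF by a log2 difference of -0.46 ± 0.20 and below CON by -0.30 ± 0.20 (SE, limma), with an unadjusted p of 0.0286 and 0.142 and an adjusted p of 0.988 and 0.731. Without PAE replicate 1, the library at the floor, the differences were -0.23 and -0.16.

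The remaining Negr1 regions named here are those with the smallest unadjusted p in a contrast. At chr2:262953671-262954751, 92.8 kb to the left of the site, 6 CON, 3 PF and 2 PAE libraries had a peak, with medians of 0.482, 0.438 and 0.438 and maxima of 1.08, 0.731 and 0.715. The log2 difference for PAE minus CON was -0.36 ± 0.18 (SE, limma, unadjusted p = 0.0590, adjusted p = 0.681), and -0.20 without CON replicate 6. At chr2:263074390-263074798 1 CON, 3 PF and 0 PAE libraries had a peak, with a maximum of 0.601 in CON and 0.920 in PF and a PAE minus PF difference of -0.28 ± 0.12 (unadjusted p = 0.0276, adjusted p = 0.988), which was -0.16 without PF replicate 4. Both regions had the PAE libraries mostly at the floor, together with most CON or PF libraries. The region at chr2:263074390-263074798 met the minimum of 3 called libraries only with its PF calls, so its p-values are given as a description. At chr2:263071071-263071590 the calls went the other way, with 1 CON, 5 PF and 4 PAE libraries, maxima of 0.752, 0.805 and 0.931, and a PF minus CON difference of 0.41 ± 0.20 (unadjusted p = 0.0539, adjusted p = 0.773).

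The most often called member of the Cpne4 window was chr8:113144689-113145339, 28.7 kb to the left of the site, with peaks in 9 CON, 9 PF and 8 PAE libraries. Heights reached 2.23 in CON, 1.45 in PF and 1.93 in PAE, with medians of 1.49, 1.16 and 1.14. The 4 libraries without a peak came from all 3 groups. PAE differed from CON by -0.29 ± 0.28 and from PF by 0.03 ± 0.28 on the log2 scale (SE, limma, adjusted p = 0.815 and 0.999), and from CON by -0.13 without PAE replicate 1.

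The longest member, 1991 bp at chr8:113190296-113192286, 17.6 kb to the right of the site, had peaks in 8 CON, 4 PF and 8 PAE libraries. Its median height was 0.881 in CON, 0.438 in PF and 0.734 in PAE, with maxima of 1.12, 0.955 and 1.00. PF libraries were thus the ones most often at the floor, and the groups overlapped. PF was below CON by a log2 difference of -0.64 ± 0.22 and PAE below CON by -0.52 ± 0.21 (SE, limma), with an unadjusted p of 0.00623 and 0.0193 and an adjusted p of 0.773 and 0.661.

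The other flanking regions with an unadjusted p under 0.05 are named after their values were seen. At chr8:113158214-113158843, 15.2 kb to the left of the Cpne4 site, 4 CON, 9 PF and 8 PAE libraries had a peak, with medians of 0.438, 1.17 and 1.05 and maxima of 1.37, 1.54 and 1.50. CON libraries were thus the lower ones, by a log2 difference of 0.61 ± 0.24 for PAE minus CON and 0.60 ± 0.25 for PF minus CON (SE, limma, unadjusted p = 0.0181 and 0.0234, adjusted p = 0.661 and 0.773), and PAE and PF differed by 0.0062 ± 0.24. Just beside it, at chr8:113156473-113156842, the order was the opposite, with a peak in 3 CON libraries only, up to 1.03, and differences of -0.25 ± 0.12 and -0.34 ± 0.13 (unadjusted p = 0.0491 and 0.0113, adjusted p = 0.677 and 0.773). The latter region met the minimum of 3 called libraries through CON alone, so its p-values are given as a description. The opposite orders of the groups at these neighbouring regions are likewise a description.

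At the right edge of the Cpne4 window, chr8:113272880-113273633 had a peak in 4 CON libraries, up to 0.883, in 1 PF library at 0.716 and in no PAE library. Its log2 difference was -0.37 ± 0.14 for PAE minus CON and -0.30 ± 0.14 for PF minus CON (SE, limma, unadjusted p = 0.0101 and 0.0425, adjusted p = 0.661 and 0.773). In the Negr1 window, chr2:263123248-263123699 had a peak in 2 CON libraries, up to 1.36, in 3 PF libraries, up to 1.03, and in no PAE library, with a PAE minus PF difference of -0.39 ± 0.18 (unadjusted p = 0.0353, adjusted p = 0.988). In both regions most libraries of every group were at the floor. Neither region would meet the minimum of 3 called libraries without its most often called group (CON and PF in turn). Their p-values are therefore given as a description.

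A flanking region 67.5 kb to the right of the Cpne4 site, chr8:113240861-113241556, had the opposite pattern to the site. It had a peak in 6 PAE libraries and in no library of the CON or PF groups. The heights were 0.679 in replicate 1, 0.715 in replicate 3, 0.808 in replicate 5, 0.517 in replicate 6, 0.730 in replicate 7 and 0.716 in replicate 10, from 4 dams, 3 lanes and 3 libraries of each labelled sex. The other 4 PAE libraries were at the floor with all CON and PF libraries, and the PAE mean was 0.592 ± 0.151 (SD, n = 10). Of the 24761 autosomal regions called in exactly 6 libraries, 6, or 0.0242%, were called in PAE only. This share is set beside a region picked for its values, so it is a description and not a test.

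At this region the log2 difference was 0.42 ± 0.12 for PAE minus PF and 0.35 ± 0.12 for PAE minus CON (SE, limma), with an unadjusted p of 0.00101 and 0.00524 and an adjusted p of 0.988 and 0.661. It is named because it had the smallest unadjusted p of the flanking regions in these contrasts, which the adjustment over 352026 regions takes into account. The region met the minimum of 3 called libraries through PAE alone, so its p-values are given as a description. Among the 12 libraries that match their label the peak was called in 4 of 6 PAE and in none of 3 CON and 3 PF libraries. The autosomal peaks of the 6 called libraries numbered 109013 to 153999, against 117648 to 208631 over CON and 113946 to 184391 over PF libraries.

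**Figure D5:**
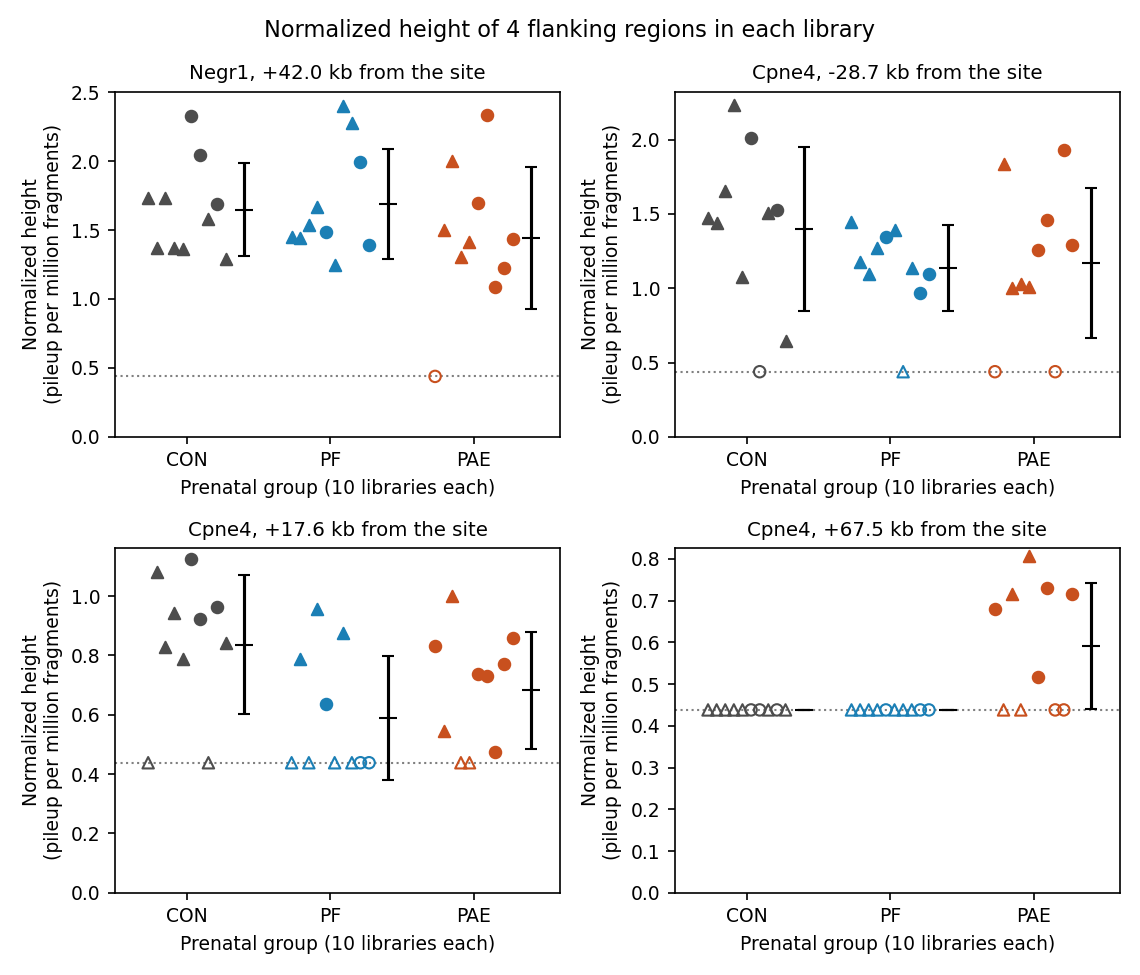
Normalized height (pileup per 1000000 filtered fragments) in each library at 4 flanking regions, the most often called region of each locus (29 and 26 libraries) and the Cpne4 regions with the smallest unadjusted p for PF versus CON (+17.6 kb) and for both PAE contrasts (+67.5 kb). Filled symbols are called peaks, open symbols are libraries at the floor of 0.438 (dotted line), circles and triangles are libraries whose sex-chromosome peaks do and do not match the label, and black marks are the mean ± SD. The groups overlap at the first 3 regions, and at +67.5 kb only 6 PAE libraries stand above the floor.

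The study asked which DNAm differences are specific to a sex and which are sex-concordant, so the contrasts were also fitted within the libraries of each label. No flanking region passed an FDR of 0.05 within the libraries labelled female (49 tested) or male (41 tested), nor in the test of the difference between the labelled sexes (62 tested). At an unadjusted p under 0.05 the libraries labelled female gave 2 regions in each contrast, where the share of all tested regions was 4.74% for PAE against CON, 4.15% for PAE against PF and 4.91% for PF against CON. The libraries labelled male gave 2, 0 and 1 in the same order, where the shares were 5.56%, 3.99% and 4.3%, and the difference between the labels gave 3, 0 and 3, where they were 4.87%, 3.19% and 4.77%. The background at that FDR was 0% for each contrast within libraries labelled female and for each difference between the labels. Within libraries labelled male it was 0% for PAE against CON and 0.000417% for both contrasts with PF. Since 18 labels go against the sex chromosomes, these fits do not separate females from males.

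The other genes of the IgLON and copine families were covered only where the study lists a differentially methylated region on Rn6, which were chosen on these libraries and are given as values. Such a region was listed for 2 of 5 IgLON genes (Negr1 and Ntm) and 2 of 9 copine genes (Cpne4 and Cpne8). In Ntm, which encodes the IgLON protein neurotrimin, the intronic region chr8:30261078-30261513 was called in 4 CON, 0 PF and 3 PAE libraries, with log2 differences of -0.20 for PAE minus CON, 0.23 for PAE minus PF and -0.43 for PF minus CON. A second Ntm region, chr8:30236206-30236624, was called in 1 CON, 0 PF and 2 PAE libraries, with differences of 0.02, 0.10 and -0.09. In Cpne8 the intronic region chr7:131768796-131769137 was called in 1 CON, 3 PF and 0 PAE libraries, with differences of -0.03, -0.54 and 0.51. Both Ntm regions had no PF call and the Cpne8 region no PAE call, so the listed regions of these families did not share 1 order of the groups. The study's lists are defined by which groups differ in these libraries, so these orders follow in part from the listing.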

How the data were processed

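Members and lists were chosen with earlier results of these data known. The authors aligned meDIP-seq reads to Rn6 with BWA, filtered them with SAMtools, and called peaks in each library with MACS2 2.1.4 without a control, at a q-value of 0.05 per the file headers. The deposited signal is the pileup of fragments at a peak, not scaled to the library. Each deposited −log10 q-value served a stricter alternative and the description of the sites. The authors' own tests used read counts in merged peaks (DiffBind), which were not used here.

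Peaks of all 30 libraries overlapping by at least 1 bp were merged. A library's value was its highest pileup per 1000000 filtered fragments, with lower values and uncalled regions set to the highest library floor, 0.438. Log2 heights of 352026 autosomal regions called in at least 3 libraries were modelled by limma 3.58.1 (R 4.3.3; lmFit, eBayes with trend) on group, labelled sex and lane, and within labelled sexes on group and lane. P-values are two-sided and Benjamini-Hochberg adjusted over all tested regions. The test was checked on simulated data with changes placed only in regions called in many libraries. The check does not cover regions called in few libraries, as many members are. Tables and figures used matplotlib 3.10.9, pandas 2.3.3, numpy 2.4.6 and Python 3.11.15.

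Groups, labelled sex and dam came from the sample labels, and lane is the sequencing chip label. A library was classed as having chromosome Y with at least 20 peaks there. Positions and intron annotation of listed regions came from the study's tables, whose values were not used. Flanking regions named are the nearest tested region on each side of a site, the most often called, and the smallest unadjusted p per contrast. Libraries of a dam are littermates, and litter as a random effect was an alternative (correlation -0.0217). Alternatives also covered lane, sex, floor, filter, scaling, peak threshold, overlap and each library left out. The 30 libraries hold 11548314 to 16555049 fragments. No genome sequence of the Rn6 build was used here, and no sequence is shown.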

Additional observations from a re-analysis of the deposited data

Results flagged for a closer look

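In 10 of the 39 group values of named regions examined, 1 library stood far from the rest of its group by Dixon's criterion. In 7 of the 10 a single library had a called peak and the other 9 were at the floor of 0.438, which meets the criterion by construction, so the rate of about 1 in 20 groups that chance gives for distinct values does not apply to them. At the Negr1 site these were CON replicate 1 (normalized height 0.693) and PF replicate 4 (0.636). Among the Negr1 flanking regions they were CON replicate 3 at chr2:263071071-263071590 (0.752) and at chr2:263074390-263074798 (0.601), and PAE replicate 3 at chr2:262953671-262954751 (0.715, where a second PAE library was at 0.477). Beside the Cpne4 site they were PF replicate 4 (0.716) and PAE replicate 2 (1.23, so that the PAE minus PF difference of 0.11 there rests on 1 library in each group) at chr8:113161498-113162304, and CON replicate 9 (0.562) and PF replicate 10 (0.732) at chr8:113176927-113177375. At the most often called Cpne4 region PF replicate 7 was the only PF library at the floor (0.438), with the other 9 at 0.966 to 1.45.

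Sex-chromosome peaks, which enter the report only to select or class libraries, went against the labelled sex in 18 of 30 libraries. The 7 libraries with few chromosome Y peaks had 2.65% to 3.14% of their peaks on chromosome X, and the other 23 had 0.774% to 1.15%.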

How the results depend on the processing

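The number of flanking regions past an FDR of 0.05 was 0 in every contrast under all 14 alternatives and with each library left out. At an unadjusted p under 0.05 the flanking regions lower in PAE than in CON numbered 0 to 6 over the alternatives and 2 to 5 with a library left out. With uncalled libraries set to 0 and a pseudocount of 0.1, the site differences were -2.23 (Cpne4, PAE minus CON), -1.66 (Cpne4, PAE minus PF) and -0.27 (Negr1, PAE minus PF), and the flanking medians were -0.21 (Negr1) and -0.23 (Cpne4) for PAE minus CON and 0.13 (Negr1, PF minus CON). With only the 12 libraries that match their label, the Cpne4 site difference for PAE minus PF was -1.12, and the medians were 0.16 (Cpne4, PAE minus PF) and 0.22 (Negr1, PF minus CON). The cause was not tested. The groups could not be compared within litters because each dam belongs to 1 group. The labels do not name the PAE partner of a PF dam, and the replicate numbers only name libraries. The fits of the difference between the labelled sexes held no dam term, although each dam gave 1 library of each label. Litter as a random effect changed no count past the FDR.

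Values near 0 changed sign. Over the alternatives the Cpne4 median ran from -0.23 to 0.079 for PAE minus CON, from -0.094 to 0.16 for PAE minus PF and from -0.17 to 0.011 for PF minus CON, and the Negr1 median from -0.022 to 0.22 for PF minus CON. The Negr1 site ran from -0.27 to 0.0061 for PAE minus PF (-0.085 to 0.044 with a library left out) and from -0.025 to 0.088 for PF minus CON. Named flanking regions, none of which passed the FDR, changed sign as follows. Without the lane term, the left Negr1 neighbour was at -0.020 (PAE minus CON) and -0.014 (PAE minus PF) and chr8:113144689-113145339 at -0.049 (PAE minus PF). With only matching libraries, the right Negr1 neighbour was at 0.16 (PAE minus CON), the left at -0.020 (PAE minus PF), chr2:263071071-263071590 at 0.13 (PAE minus PF) and chr8:113240861-113241556 at 0.015 (PF minus CON). With peaks covering at least 50% of the region, the left Negr1 neighbour was at -0.084 and chr2:263088578-263089522 at 0.32 (PAE minus CON). Quantile normalization gave 0.034 at the right Negr1 and 0.039 at the right Cpne4 neighbour, and median ratio scaling 0.039 at the latter (PAE minus CON). With uncalled libraries at 0, the right Negr1 neighbour was at 0.0077 and chr8:113144689-113145339 at -0.14, and with sex classed from the chromosomes the latter was at -0.056 (PAE minus PF). With each library left out in turn, ranges spanned 0 at the right Negr1 neighbour (-0.22 to 0.014 for PAE minus CON, -0.20 to 0.074 for PAE minus PF), the left (-0.068 to 0.11, PAE minus PF), the right Cpne4 neighbour (-0.035 to 0.00082, PAE minus CON) and chr8:113144689-113145339 (-0.21 to 0.29, PAE minus PF). The PAE minus PF difference at chr8:113240861-113241556 ranged from 0.36 to 0.49 with a library left out and had an adjusted p of 0.255 to 1 over all alternatives. A pileup near 5 or 6 fragments is the least the peaks show, so DNAm below it is not seen.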
